A study of Danio rerio with 4 samples.

Results

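The fibroblast growth factor (FGF) and platelet-derived growth factor (PDGF) genes described here are the rows of the deposited zebrafish expression table whose gene name begins with *fgf* or *fgfr* and a digit, or with *pdgf*. The rule finds 41 of 20984 rows, which carry 39 distinct names because *pdgfaa* and *fgfr1bl* each stand on 2 rows. It also takes in *fgfr1op* and *fgfr1op2*, named after human genes that were found fused to FGFR1, which encode neither a ligand nor a receptor. RNA from individual ventricles of adult AB zebrafish, 3 to 12 months old, was sequenced after cryoinjury, with 2 wild types and 2 *cd74a; cd74b* double mutants, each genotype with 1 female and 1 male that the labels do not tie to a library. The mutants carry the bns454 allele of *cd74a* and the bns456 allele of *cd74b*, both small CRISPR-Cas9 deletions carried by the whole fish and not by a single cell type. Wild types and mutants were not littermates of 1 cross, since each came from a wild-type or a mutant batch crossed with double heterozygotes, so parentage and genotype cannot be told apart. All 4 ventricles were cryoinjured, that is, touched with a probe cooled in liquid nitrogen, and no uninjured ventricle was compared, so the values say nothing about the response to injury itself. The time of collection is 120 hours after cryoinjury in the paper and 7 days in the design text of the series. Cd74 is the invariant chain that MHC class II molecules need for assembly and transport, and the comparison asks how ventricles of fish with these mutations differ.

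FGFs and PDGFs are secreted proteins that bind receptor tyrosine kinases on neighboring cells and switch on the Ras-ERK, PI3 kinase and phospholipase C gamma pathways. FGFs need heparan sulfate chains to hold them on the receptor, whereas PDGFs act as dimers of A, B, C or D chains. In mammals, PDGF-B from endothelial cells recruits mural cells, which carry PDGF receptor beta, to blood vessels, while PDGF receptor alpha marks mesenchymal cells such as fibroblasts. In the regenerating zebrafish heart both families are known for their action on the epicardium, the outer cell layer that supplies vessel-associated cells to new tissue. Many of these genes exist as pairs of copies kept from the genome duplication of teleost fish, such as *pdgfba* and *pdgfbb*.

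The values are normalized counts, namely reads counted per gene, divided by a size factor for each library and rounded to whole numbers by the authors. They summed to between 4123819 and 4382529 per ventricle. Transcripts that are abundant in the heart had modest values, with 212 to 399 for the globin gene *hbaa1* and 970 to 1209 for *myl7*, the atrial and ventricular myosin light chain. Whether duplicate reads were removed before counting is not given in the sources used here, and such a step would compress high values and their fold changes. Levels are not compared between genes because transcript lengths are not listed. Both targeted genes were lower in the mutants, *cd74a* with 837 and 913 in the wild types against 408 and 401, and *cd74b* with 622 and 678 against 131 and 117. Genes with a mean of at least 10 over the 4 ventricles were tested with limma on the log2(normalized count + 1) scale, which understates the fold change of low genes. A gene was called at a Benjamini-Hochberg adjusted p-value under 0.05 over all 16065 genes tested when its log2 fold change (log2FC, mutant minus wild type) was at least 0.59 in size. Errors of log2FC are limma's standard errors (SE) from 2 ventricles per genotype, the smallest p-value that an exact permutation test can give in this design is 0.333, and an interval is limma's 95% confidence interval. The ventricles are separate animals. Since each sample is a whole ventricle, fewer cells of a type and less RNA per cell cannot be told apart.

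Of the 41 rows, 30 passed the mean of 10 and were tested. The lowest of these was *fgf10b*, with a mean of 11.5, and the highest of those left out was *fgf8b*, with a mean of 7.25. Among the tested genes, 1 was called lower in mutants, against 7.44% of all tested genes, and 0 were called higher, against 2.7% of all tested genes. The called gene was *pdgfba*, 1 of the pair of genes for PDGF-B. By limma's unadjusted p-value, 9 of the 30 were under 0.05, which is 30% against a background of 29%. Of these, 4 had lower values in mutants (13.3%, background 17.2%) and 5 had higher values (16.7%, background 11.7%). The genotypes did not overlap in 14 of the 30, against 59.9% of all tested genes. In 7 both mutants were below both wild types (background 29.4%) and in 7 they were above (background 30.5%). The median log2 fold change was 0.06 over the tested members and 0.03 over all tested genes. Apart from the 5 genes with higher values by unadjusted p-value, these shares were near or below the background. The values below therefore describe single genes and no shift of the family. All 7 rows of PDGF ligands, both PDGF receptors and the receptor-like *pdgfrl* were tested, as were 10 of 16 secreted FGFs, 6 of 7 FGF receptor rows and 2 of 6 intracellular FGFs.

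**Figure D1:**
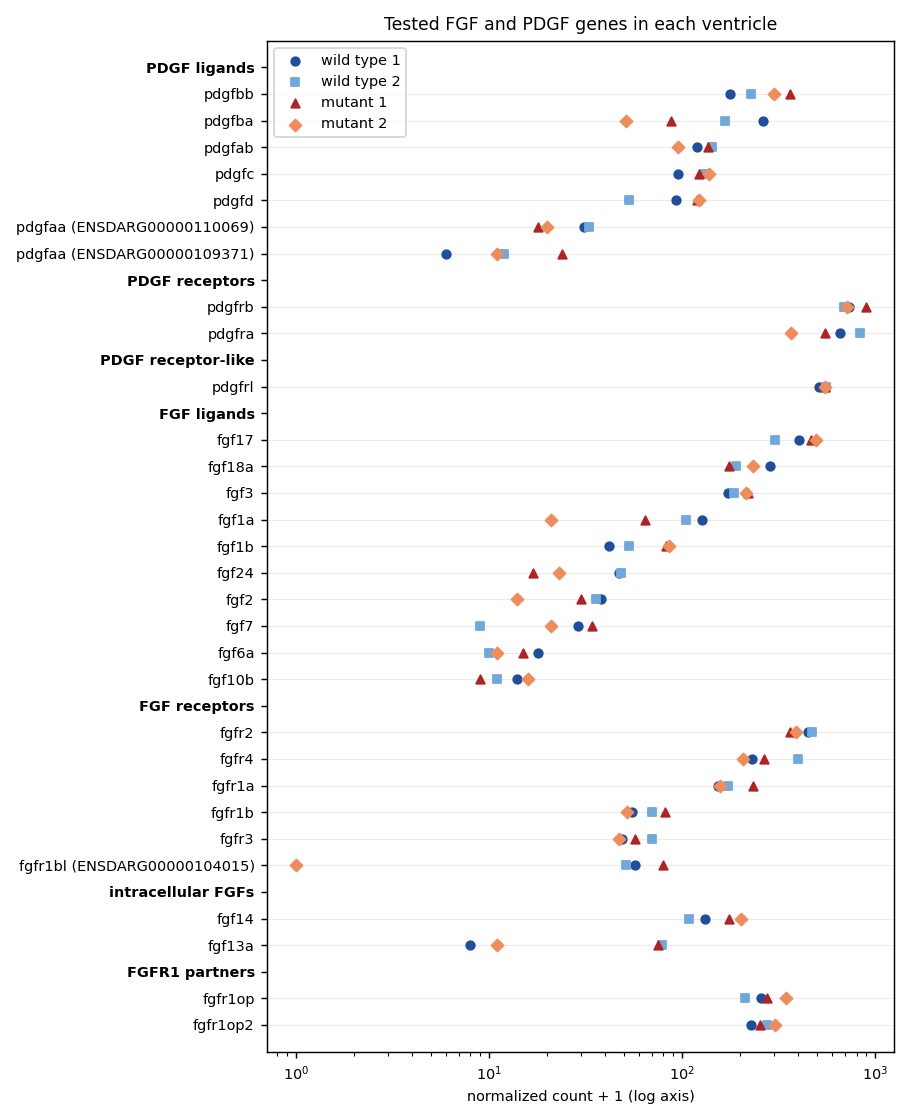
Normalized count plus 1 (log axis) of the 30 tested FGF and PDGF genes, grouped by role, with 1 point per ventricle (blue, wild type; red and orange, mutant). *pdgfba* is the gene called different, with 262 and 165 in wild-type ventricles against 87 and 50 in mutant ventricles, whereas the 4 points of *pdgfrl* all lie between 513 and 552.

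**Figure D2:**
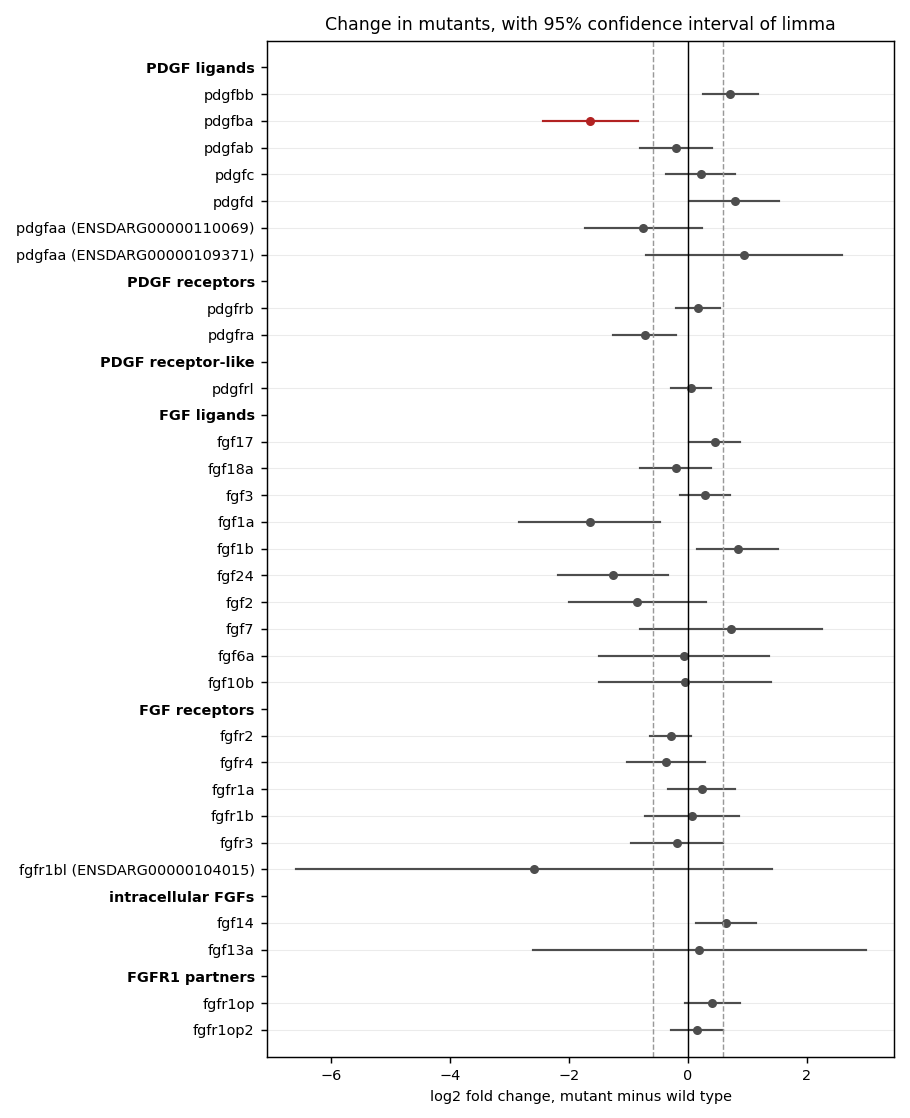
Log2 fold change (mutant minus wild type) of the same 30 genes with limma's 95% confidence interval, red where called and gray where not, and dashed lines at -0.59 and 0.59. The interval of *pdgfba*, from -2.45 to -0.84, lies wholly beyond the dashed line, and those of *fgf13a* and *fgfr1bl* are the widest.

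Among the PDGF ligands the pair of PDGF-B genes stood apart. *pdgfba* (chromosome 22, 29312228 to 29336309 in danRer11) had 262 and 165 normalized counts in wild-type ventricles against 87 and 50 in mutant ventricles. It fell by 1.64 on the log2 scale (SE 0.34, limma adjusted P 0.029), and both mutants lay below both wild types. Its copy *pdgfbb* (chromosome 3, 24275597 to 24297419) had 176 and 225 in wild-type ventricles against 360 and 298 in mutant ventricles. Both mutants lay above both wild types, with a log2FC of 0.72 (SE 0.20, interval 0.25 to 1.19), which missed the adjusted threshold (limma adjusted P 0.064). With any 1 ventricle omitted, *pdgfba* kept a log2FC between -2.03 and -1.25, but no gene of the whole table was called in any of these fits. Its adjusted p-values without 1 ventricle were 0.27 and 0.21 (wild type 1 and 2) and 0.15 and 0.37 (mutant 1 and 2). Its call was also lost when genes with low values were kept (limma adjusted P 0.093) and without the mean-variance trend (0.10).

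The share of PDGF-B reads that came from *pdgfba* rather than *pdgfbb* was 59.8% and 42.3% in wild-type ventricles against 19.5% and 14.4% in mutant ventricles. The groups did not overlap, and the mean log2 ratio of *pdgfba* to *pdgfbb* changed from 0.06 to -2.29 (two-sided exact permutation test, p = 0.333, the smallest this design allows). Any pair without overlap gets this p-value, whatever the size of its change. The ratio was built from the values that gave the call, so it is no further support for it. The sum of both copies was 438 and 390 in wild-type ventricles against 447 and 348 in mutant ventricles, so the groups overlapped. Since the copies may differ in length, these shares are of reads and not of transcripts, whereas the change in the log2 ratio between genotypes does not depend on length. Mural cells, the known targets of PDGF-B, were followed with 10 marker genes, whose summed normalized counts were 3675 to 4529 in the wild types and 4567 to 4777 in the mutants. Of these, 0 were called lower (background 7.44%) and 1 was called higher (background 2.7%). The called marker, *ndufa4l2a*, had 5 and 2 in wild-type ventricles against 50 and 40 in mutant ventricles (limma adjusted P 0.019). The mural markers did not move together. Both mutants lay above both wild types in 4 of the 10 (background 30.5%) and below them in 1 (background 29.4%). The lower gene was *cspg4*, with 313 and 112 against 93 and 74 (log2FC -1.17, limma adjusted P 0.14). Of 9 endocardial and endothelial markers, 1 was called lower (*vwf*, background 7.44%) and 1 higher (*pecam1*, background 2.7%). In 3 of the 9 (*vwf*, *cdh5* and *tie1*) both mutants lay below both wild types (background 29.4%). In 2 (*pecam1* and *aqp8a.1*) they lay above (background 30.5%). *cdh5* had 1815 and 2171 against 1685 and 1427. The sums of the 9 were 11737 to 11885 in the wild types and 10330 to 10688 in the mutants. These sums weigh *vwf* heavily, with 3299 and 2985 against 1939 and 1710. The median log2 fold change of the 9 was 0.03, and *kdrl* (1564 and 1384 against 1597 and 1345) and *fli1a* (962 and 983 against 969 and 1016) overlapped. None of the markers in these lists was at 0 in any ventricle, and their part in the change of *pdgfba* was not tested.

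**Figure D3:**
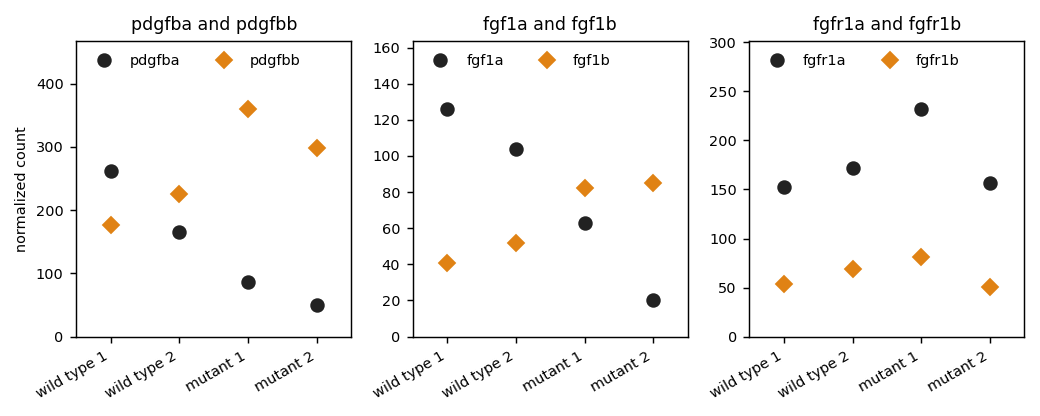
Normalized counts of both copies of 3 gene pairs in each ventricle, PDGF-B (left), FGF1 (middle) and FGF receptor 1 (right). The copies exchange their order between genotypes for FGF1, where *fgf1a* is above *fgf1b* in both wild types and below it in both mutants, whereas *fgfr1a* stays above *fgfr1b* in all 4 ventricles.

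The other PDGF ligands were not called. *pdgfd*, which encodes a chain that signals through PDGF receptor beta in mammals, had 92 and 52 in wild-type ventricles against 119 and 121 in mutant ventricles. Both mutants lay above both wild types, with a log2FC of 0.79 (SE 0.32, limma adjusted P 0.15). *pdgfc*, whose product in mammals binds PDGF receptor alpha after a protease has cut it, had 94 and 129 against 121 and 136. *pdgfab*, a gene for the A chain, had 119 and 142 against 135 and 94. In both genes the groups overlapped. The other A chain gene, *pdgfaa*, is annotated at 2 places on chromosome 22 that lie 79.4 kb apart and share a UniProt accession. The first (25991130 to 26005894) had 30 and 32 in wild-type ventricles against 17 and 19 in mutant ventricles, and the second (26085343 to 26100282) had 5 and 11 against 23 and 10. Reads that align to both places were left out by the authors, so these values are uncertain.

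Of the PDGF receptors, *pdgfrb* did not differ detectably and *pdgfra* had lower values in the mutants without passing the threshold. *pdgfrb*, the receptor of mural and epicardial cells, had 734 and 684 in wild-type ventricles against 893 and 713 in mutant ventricles. The groups overlapped, and the interval of the log2 fold change was -0.21 to 0.55, so a change as large as that of *pdgfba* lies outside it. *pdgfra* (chromosome 20, 22435180 to 22476255) had 656 and 833 in wild-type ventricles against 548 and 364 in mutant ventricles. Both mutants lay below both wild types, with a log2FC of -0.73 (SE 0.23, interval -1.25 to -0.20, limma adjusted P 0.082). Dissected ventricles can carry parts of the neighboring chambers, whose markers were uneven. *elnb*, an elastin gene of the outflow tract, had 375 and 591 against 297 and 145, and *myh6*, the atrial myosin heavy chain, had 1352 and 3908 against 1250 and 154. The other markers of this list did not run the same way, with 167 and 362 against 264 and 182 for *nr2f1a* and 393 and 391 against 557 and 570 for *mylka*. Of the 4 markers, 0 were called by limma (background 7.44% lower and 2.7% higher), and none was at 0. An unadjusted limma p-value under 0.05 was reached by 3 (background 29%). The sums were 2287 to 5252 in the wild types and 1051 to 2368 in the mutants. Markers of epicardial cells summed to 5855 to 6580 in the wild types and 5638 to 6126 in the mutants, and none was at 0. This sum includes *aldh1a2* (1187 and 1309 against 1026 and 1201). The paper stains its protein to mark activated endocardial cells, so the sum is not of the epicardium alone. Of the 9 epicardial markers, 1 was called lower (*tbx5b*, background 7.44%) and 0 were called higher (background 2.7%). Both mutants lay below both wild types in 2 (*tbx5b* and *wt1a*, background 29.4%) and above them in 2 (*wt1b* and *gpx3*, background 30.5%). Of 8 fibroblast markers, 1 was called lower (*fn1b*, background 7.44%), 0 were called higher (background 2.7%) and none was at 0. Their sums were 25994 to 26238 in the wild types and 25784 to 26327 in the mutants. Both mutants lay above both wild types in 4 of the 8 (background 30.5%) and below them in 1 (background 29.4%). The part of these tissues and cells in the *pdgfra* values was not tested. *pdgfrl*, which encodes a protein related to the outer part of PDGF receptors but without a kinase, had 513 and 552 against 551 and 549, with an interval of -0.29 to 0.38.

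Among the secreted FGFs none of the 10 tested was called by limma (background 7.44% lower and 2.7% higher). Of the 10, 4 had an unadjusted limma p-value under 0.05 (background 29% of all tested genes), with values in opposite directions. *fgf17*, a gene of the FGF8 subfamily that is also listed as *fgf17b* and that is known from the injured zebrafish heart, had 404 and 301 normalized counts in wild-type ventricles against 463 and 490 in mutant ventricles, a log2FC of 0.45 (SE 0.18, limma adjusted P 0.16). Both mutants lay above both wild types. The other tested genes of the FGF8 subfamily were *fgf18a* and *fgf24*. *fgf18a* had 284 and 188 against 173 and 232, and the groups overlapped. *fgf24*, needed for the pectoral fin bud of the embryo, had 46 and 47 in wild-type ventricles against 16 and 22 in mutant ventricles. Both mutants lay below both wild types, with a log2FC of -1.26 (SE 0.40, interval -2.19 to -0.34, limma adjusted P 0.084).

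The pair of FGF1 genes, whose products can bind all FGF receptors, had opposite values. *fgf1a* (chromosome 14, 23731949 to 23737674) had 126 and 104 in wild-type ventricles against 63 and 20 in mutant ventricles, a log2FC of -1.66 (SE 0.51, limma adjusted P 0.079). *fgf1b* (chromosome 21, 44112914 to 44116241) had 41 and 52 against 82 and 85, a log2FC of 0.84 (SE 0.29, limma adjusted P 0.11). Neither passed the threshold, and in both genes the genotypes did not overlap. The share of the summed reads that came from *fgf1a* was 75.4% and 66.7% in wild-type ventricles against 43.4% and 19.0% in mutant ventricles (two-sided exact permutation test of the log2 ratio, p = 0.333, the smallest this design allows). The sum of both copies was lower in both mutants than in both wild types, with 167 and 156 in wild-type ventricles against 145 and 105 in mutant ventricles. The value of *fgf1a* depended on mutant 2, since without it the log2 fold change was -0.85, and without mutant 1 it was -2.46.

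The remaining tested FGF ligands showed smaller or less certain differences. *fgf2*, a ligand close to FGF1, had 37 and 35 in wild-type ventricles against 29 and 13 in mutant ventricles. Both mutants lay below both wild types, but the gene was not called (log2FC -0.85, limma adjusted P 0.29). *fgf3* had 172 and 184 against 219 and 214, without overlap and with a log2FC of 0.28 (SE 0.18, limma adjusted P 0.34). *fgf7* (28 and 8 against 33 and 20), *fgf6a* (17 and 9 against 14 and 10) and *fgf10b* (13 and 10 against 8 and 15) were near the lower limit, and their groups overlapped.

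None of the FGF receptor genes was called by limma (background 7.44% lower and 2.7% higher). An unadjusted limma p-value under 0.05 was reached by 0 of the 6 tested rows (background 29%). *fgfr2* had 445 and 472 in wild-type ventricles against 361 and 388 in mutant ventricles. It was the only 1 of the 6 rows without overlap between genotypes, a state found in 59.9% of all tested genes. Its log2FC was -0.29 (SE 0.15, interval -0.64 to 0.06, limma adjusted P 0.24). *fgfr4* had 228 and 398 against 265 and 206. The difference within the wild types was larger than that between the genotypes, and without wild type 2 the sign of its log2 fold change turned from -0.37 to 0.04. The proportions of the pair of FGF receptor 1 genes differed little. *fgfr1a* had 153 and 172 against 232 and 157, *fgfr1b* had 54 and 69 against 81 and 51, and the share of *fgfr1a* in their sum was 71.4% to 73.9% in the wild types and 74.1% to 75.5% in the mutants. These shares did not overlap either. The log2 ratio changed by 0.16, with the same two-sided exact permutation p-value of 0.333 as the other pairs of members. *fgfr3* had 48 and 69 against 56 and 46, with an interval of -0.95 to 0.60.

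*fgfr1bl*, which the table names as an FGF receptor 1b-like gene, is annotated as 2 neighboring rows on the same strand of chromosome 22, separated by 720 bases. The longer (6969477 to 6991514) had 56 and 50 normalized counts in wild-type ventricles, 79 in mutant 1 and 0 in mutant 2. The shorter (6962924 to 6968756), which was below the filter, had 7 and 2 in the wild types, 14 in mutant 1 and 0 in mutant 2. Mutant 2 was thus the only ventricle at 0 in either row. In the longer row the lower mean of the mutants came from it. In the shorter row the mean was 4.5 in the wild types and 7 in the mutants. For the longer row log2FC was -2.59 (SE 1.71), and 0.57 without mutant 2.

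The intracellular FGFs are not secreted and are known for binding voltage-gated sodium channels. *fgf14* had 130 and 108 in wild-type ventricles against 173 and 200 in mutant ventricles. Both mutants lay above both wild types, with a log2FC of 0.65 (SE 0.21, interval 0.14 to 1.15, limma adjusted P 0.096). *fgf13a* had 7 and 78 in wild-type ventricles against 74 and 10 in mutant ventricles, so 1 ventricle of each genotype was high and 1 was low. Its interval, -2.61 to 2.99, covers changes in either direction. The 2 genes named after FGFR1 fusions had 254 and 211 against 275 and 346 (*fgfr1op*, a centrosome gene also listed as *cep43*) and 225 and 273 against 253 and 300 (*fgfr1op2*). Neither was called.

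The 11 rows below the filter were the second *fgfr1bl* row, 6 secreted FGFs and 4 intracellular FGFs. In 9 of them no ventricle had more than 8 normalized counts, and 6 of the 11 were at 0 in at least 1 ventricle. *fgf18b* had 8 and 7 in wild-type ventricles against 2 and 2 in mutant ventricles, and *fgf16* had 4 and 5 against 5 and 8. *fgf8a*, a ligand of the embryonic heart field, had 2 and 6 against 7 and 4. *fgf8b* was listed at 0 in wild type 1 and mutant 1, at 21 in wild type 2 and at 8 in mutant 2. It overlaps *dpcd* and *poll*, and *fgf4* overlaps a clone-named gene, so reads shared with these neighbors may not have been counted. *fgf10a*, *fgf13b*, *fgf11a*, *fgf12b*, *fgf4* and *fgf11b* had between 0 and 4 in every ventricle. A difference between genotypes was not detectable for these genes at this depth.

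Several of the genes lie on the chromosomes of the edited genes, with 9 of the 41 rows on chromosome 14, which holds *cd74a*, and 3 on chromosome 21, which holds *cd74b*. The closest was *pdgfrb* (3186485 to 3268155), 134 kb from *cd74a*, followed by *fgf18a* at 502 kb. Between *cd74a* and *pdgfrb* lies *csf1ra*, the macrophage growth factor receptor, which ends 5.54 kb before *pdgfrb* and had 937 and 762 in wild-type ventricles against 364 and 345 in mutant ventricles (log2FC -1.25, limma adjusted P 0.010). Of the 8 tested genes on chromosome 14, 0 were called by limma, 2 had an unadjusted p-value under 0.05 (*fgf24* and *fgf1a*), and 3 had both mutants below both wild types (*fgf24*, *fgf1a* and *fgf2*), at distances of 2.45, 20.7 and 2.47 Mb from *cd74a*. In 0 of the 8 did both mutants lie above both wild types. Over all 567 tested genes of chromosome 14, 4.94% were called lower and 3.17% higher, 76 had lower and 73 higher values at an unadjusted p-value under 0.05, and both mutants lay below both wild types in 138 and above them in 193. On chromosome 21, *fgfr4* lies 3.72 Mb and *fgf1b* 10.6 Mb from *cd74b*. *csf1rb*, the other copy of the macrophage receptor gene, lies between them at 10.4 Mb and was called lower, with 62 and 64 against 11 and 3.

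**Figure D4:**
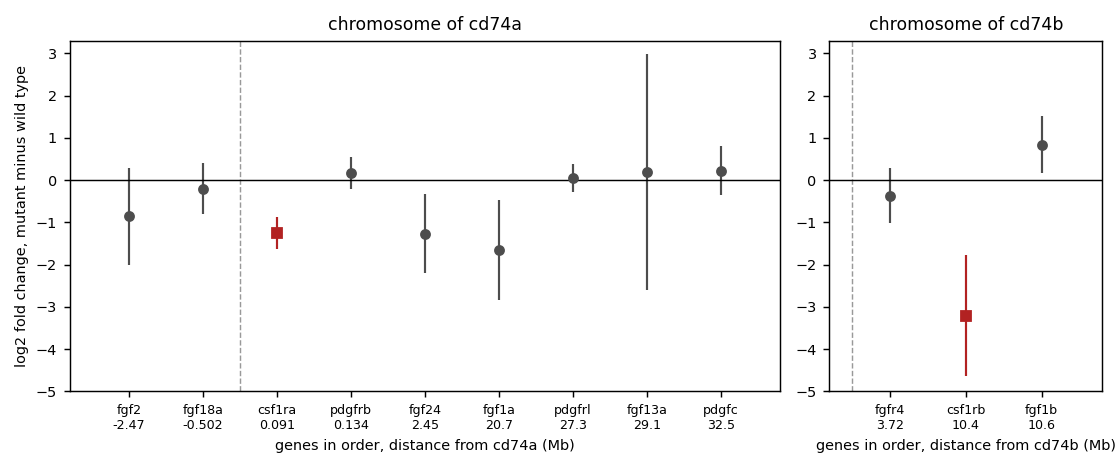
Log2 fold change (mutant minus wild type) with limma's 95% confidence interval of the tested FGF and PDGF genes (circles) and of *csf1ra* and *csf1rb* (squares) in their order along the chromosomes of *cd74a* (left) and *cd74b* (right), with the signed distance in Mb under each name and the edited gene at the dashed line. *csf1ra* is lower (red, called) at 0.091 Mb, while *pdgfrb* at 0.134 Mb spans 0.

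The genes that act with FGFs and PDGFs were followed in 4 lists of 98 genes, of which 87 had a row and 78 were tested. Of these, 12 were called lower (15.4%, against 7.44% of all tested genes) and 1 was called higher (1.28%, against 2.7% of all tested genes). The median log2 fold change was 0.00. Both mutants lay below both wild types in 23 of the 78 (background 29.4%) and above them in 21 (background 30.5%). The lists were chosen with earlier results of these data known, so the larger share of lower calls is no independent support for a change. Each of the 4 lists held genes called lower. The shares were 8.7% of the tested genes that hold or modify FGFs and 9.09% of FGF target and feedback genes. They were 18.2% of receptor tyrosine kinase adaptors and effectors and 27.3% of PDGF processing and co-receptor genes. With any ventricle left out, or with no filter on low values, 0 of the 78 were called, but then no gene of the whole table was called either. The log2FC of the 13 called genes kept its direction in each of these fits, for example between -1.85 and -1.57 for *spred2b* and between -1.31 and -1.08 for *lrp1ab* with any ventricle left out. Without the mean-variance trend, 4 were called lower.

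Genes that hold or modify FGFs outside the cell, that is co-receptors, decoy receptors, carriers and the makers of heparan sulfate, had 2 of 23 tested genes called lower (8.7%, background 7.44%) and 0 called higher by limma (4 lower and 1 higher by unadjusted p-value under 0.05). *ext1b*, which encodes a polymerase of heparan sulfate chains, had 65 and 74 in wild-type ventricles against 15 and 12 in mutant ventricles, and it fell by 2.29 on the log2 scale (SE 0.38, limma adjusted P 0.017). *extl3*, whose product starts these chains, had 193 and 155 against 69 and 42 (log2FC -1.66, SE 0.31, limma adjusted P 0.021). Of the other copies of the polymerase gene, *ext1a* had 239 and 211 against 231 and 202, and the groups overlapped. *ext1c* had 23 and 22 against 60 and 26, higher in both mutants and without a call (limma adjusted P 0.32). The decoy receptor gene *fgfrl1a* had 366 and 384 against 455 and 508, without overlap, but was not called (limma adjusted P 0.17).

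The list of FGF target and feedback genes held genes that FGF signaling is known to induce, which are commonly used as a readout of the pathway. It also held inhibitors that dampen the signal, such as the Spred genes. Of 11 tested, 1 was called lower (9.09%, background 7.44%) and 0 were called higher by limma (1 and 2 by unadjusted p-value under 0.05). The median log2 fold change was 0.16. Both mutants lay above both wild types in 5 of the 11 (background 30.5%) and below them in 1 (background 29.4%). The 5 were *spry1*, *spry2*, *spred1*, *spred2a* and *il17rd*, none of them called. The ETS factor genes did not differ detectably, with 572 and 438 against 509 and 554 for *etv4*, 295 and 238 against 266 and 258 for *etv5a*, and 318 and 244 against 319 and 247 for *etv5b*. The ERK phosphatase gene *dusp6* had 1009 and 1357 against 1140 and 1506, with an interval of -0.31 to 0.63. *spred2b*, for an inhibitor of the Ras-ERK pathway, fell (212 and 191 against 67 and 55, log2FC -1.71, SE 0.23, limma adjusted P 0.011). Its copy *spred2a* had 337 and 363 against 452 and 568, without overlap and without a call (limma adjusted P 0.089). The feedback inhibitor gene *spry2* had 192 and 236 against 301 and 294 (limma adjusted P 0.13), again without overlap.

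Of 33 tested adaptors and effectors of receptor tyrosine kinases, 6 were called lower (18.2%, background 7.44%) and 1 was called higher (3.03%, background 2.7%). *pik3ca*, for a catalytic subunit of PI3 kinase, had 249 and 265 in wild-type ventricles against 32 and 13 in mutant ventricles, and it fell by 3.58 on the log2 scale (SE 0.41, limma adjusted P 0.0079). *gab2*, for a docking protein, had 73 and 63 against 3 and 2 (limma adjusted P 0.0098). *plcg2*, the phospholipase C gamma gene of blood cells, had 362 and 252 against 104 and 74, and *cbl*, for a ubiquitin ligase that marks active receptors for degradation, had 344 and 240 against 104 and 60. *src* had 84 and 79 against 26 and 15, and *ptpn11b*, for the phosphatase Shp2, had 255 and 263 against 113 and 44. The log2FC of these 4 genes was -1.77 (*plcg2*), -1.85 (*cbl*), -1.99 (*src*) and -1.86 (*ptpn11b*), with limma adjusted P between 0.013 and 0.033. In the opposite direction *sos1*, which loads Ras with GTP, rose (413 and 328 against 700 and 744, log2FC 0.97, SE 0.17, limma adjusted P 0.018). Its relative *sos2* had 508 and 342 against 645 and 626, without overlap and without a call (log2FC 0.61, limma adjusted P 0.10). The docking protein genes that serve FGF receptors in particular were not called, with 44 and 47 against 24 and 17 for *frs2a* (limma adjusted P 0.11) and 218 and 184 against 297 and 362 for *frs2b* (limma adjusted P 0.058). Leukocytes also use these adaptors. In the same libraries 3 of 8 macrophage markers were called lower (*mpeg1.1*, *mpeg1.2* and *csf1ra*, background 7.44%) and 0 higher (background 2.7%). Of the 3, *csf1ra* lies 0.091 Mb from *cd74a*. In 8 of the 8 both mutants lay below both wild types (background 29.4%). The macrophage sums were 5033 to 5497 in the wild types and 3465 to 3528 in the mutants, with no marker at 0. Of 4 tested neutrophil markers, 2 were called lower (*mpx* and *npsn*, background 7.44%) and 0 higher (background 2.7%). *mmp9* (293 and 179 against 216 and 232) and *cpa5* (20 and 82 against 23 and 19) overlapped between genotypes. The sums over 6 genes were 605 to 745 in the wild types and 374 to 375 in the mutants. Of 5 tested lymphocyte markers, 1 was called lower (*cd4-1*, 171 and 162 against 21 and 19, background 7.44%) and 0 higher (background 2.7%). The sums over 7 genes were 222 to 359 in the wild types and 82 to 100 in the mutants, and they weigh *cd4-1* heavily. *cd8a* was at 0 in mutant 2 and *cd79b* at 0 in wild type 1. Both mutants lay below both wild types in 2 of the 5 (background 29.4%) and above them in 0 (background 30.5%). The groups overlapped for *lck* (5 and 28 against 16 and 15) and *zap70* (11 and 50 against 31 and 29). Of 6 red blood cell markers, 1 was called lower (*hbba1*, background 7.44%), 0 were called higher (background 2.7%) and none was at 0. In 5 of the 6 both mutants lay below both wild types (background 29.4%). The sums were 2690 in wild type 1 and 5274 in wild type 2 against 2081 and 2160 in the mutants. Wild type 2 was high in *slc4a1a*, for example (700 and 2002 against 550 and 508). The part of blood cells in the lower adaptor genes was not tested.

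Of 11 tested genes that process PDGFs or act beside their receptors, 3 were called lower (27.3%, background 7.44%). *lrp1ab*, a copy of the large endocytic receptor that binds PDGF receptor beta in mammals, fell (2087 and 2339 against 1045 and 888, log2FC -1.20, SE 0.15, limma adjusted P 0.010). *nrp1b*, a neuropilin gene, fell (154 and 134 against 54 and 32, log2FC -1.76, SE 0.32, limma adjusted P 0.021). *plat*, for the tissue plasminogen activator, which cuts PDGF-C into its active form in mammals, fell (153 and 232 against 79 and 79, log2FC -1.24, SE 0.26, limma adjusted P 0.030). The other copies of the receptor genes had values in the same direction without a call, with 1987 and 2111 against 1576 and 1202 for *lrp1aa* (limma adjusted P 0.068) and 631 and 699 against 482 and 290 for *nrp1a* (limma adjusted P 0.070).

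Many of the called signaling genes have a close relative in the lists, and the relatives were compared after these values had been seen. In the pairs *gab1* and *gab2*, *plcg1* and *plcg2*, *pik3cb* and *pik3ca*, *ptpn11a* and *ptpn11b*, and *ext1a* and *ext1b*, the second gene was called lower while the first had a log2FC of -0.06 (*ext1a*), 0.00 (*pik3cb*), 0.06 (*plcg1*), 0.07 (*ptpn11a*) and 0.15 (*gab1*). The normalized counts of *gab1* were 601 and 448 in wild-type ventricles against 542 and 608 in mutant ventricles. *cblb* had 583 and 398 against 780 and 698, opposite to *cbl*, and was not called (limma adjusted P 0.096). The ratio of the 2 genes did not overlap between genotypes in any of these pairs, and the two-sided exact permutation p-value was 0.333 in each, the smallest possible. Each pair was taken up because a gene of it had been called, so this outcome was largely fixed beforehand and is no separate support.

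**Figure D5:**
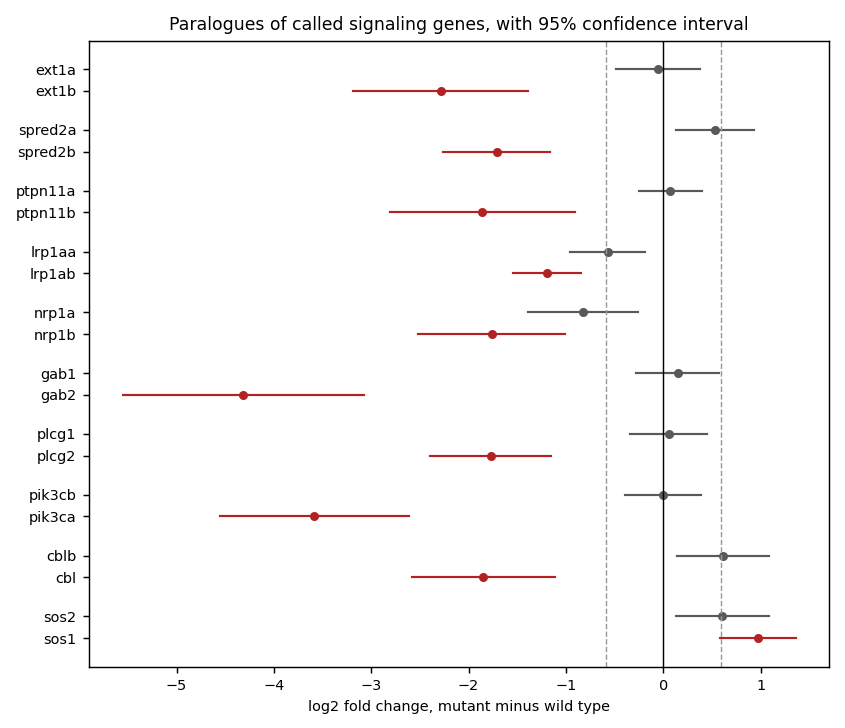
Log2 fold change (mutant minus wild type) with limma's 95% confidence interval of 10 pairs of related signaling genes, red where called and gray where not, with dashed lines at -0.59 and 0.59. In 9 of the pairs 1 gene is called lower and its relative is not called. In the pair of *sos1* and *sos2* the first is called higher, at 0.97, and the second lies in the same direction, at 0.61, without a call.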

How the data were processed

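The labels put the 4 ventricles in 2 groups by genotype. The authors' methods name Trimmomatic 0.39 for trimming, STAR 2.7.9a for alignment (danRer11, annotation of Ensembl release 104), featureCounts 2.0.2 for gene counts and DESeq2 1.30.0 for normalization. Multi-mapping reads and reads shared by genes were not counted. Libraries were stranded, but the counting strand is not given in the sources used here. The deposited value is a score per gene and ventricle, that is, a whole number left after scaling each library's counts by its size factor, so no count test was run. Gene names and positions are those of the deposited table.

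Genes with a mean of at least 10 were compared with limma 3.58.1 in R 4.3.3 on log2(value + 1). The prior followed the trend of variance with level (5.33 prior degrees of freedom), with Benjamini-Hochberg adjustment over 16065 genes. Thresholds were those of the paper's methods, whereas its volcano plot used a log2 fold change limit of 1. The paper's own test was the Wald test of DESeq2. Same-numbered ventricles are different animals, and their deviations from the group means correlated at -0.066 across genes, so no block was used. The members and gene lists were chosen with earlier results of these data known. Values in every ventricle are given for members that were called or had an unadjusted p-value under 0.05, for receptors and for pairs of members, whereas called genes of the pathway lists are all named and other genes of the pathway and marker lists are given by counts and examples. Alternatives were no filter, a stricter minimum mean (50), a pseudocount of 0.1 or 5, no trend, 4 other scalings (total, upper quartile, trimmed mean of log ratios, cyclic loess), voom weights, a replicate block, other fold-change limits and leaving out each ventricle.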

Additional observations from a re-analysis of the deposited data

How the results depend on the processing

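With no filter on low values, limma called 0 members, 0 pathway genes and 0 genes of the whole table in either direction, although the unadjusted p-value was under 0.05 for 5015 of 20984 genes (smallest adjusted p-value 0.0518). Without the mean-variance trend, 0 members were called, and the counts were 461 lower and 82 higher genes over the table and 4 lower and 0 higher pathway genes, in place of 1196, 434, 12 and 1. With a replicate block, which the labels do not establish as a pairing, *pdgfba* was still called (limma adjusted p-value 0.033), while the table had 740 lower and 215 higher genes. Scaling by a trimmed mean of log ratios called *pdgfbb* higher (limma adjusted p-value 0.049), so that 1 member was higher, and 3 pathway genes were higher, against 2 after scaling to the same total. At a log2 limit of 1, 238 genes of the table and 0 pathway genes were higher. Without any 1 ventricle, the counts were 0 (0 to 0) for members, pathway genes and all genes in both directions, where 1 genotype was left with 1 ventricle that was assumed to vary like the other genotype. Cyclic loess turned the sign of uncalled *fgf6a* (0.45), *fgf10b* (0.49), *fgfr3* (0.020) and *pdgfrl* (-0.072).

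The log2 fold changes without 1 ventricle changed sign for these uncalled genes, with ranges of -1.46 to 1.84 for *fgf13a*, -0.50 to 0.091 for *fgf18a*, -0.12 to 1.57 for *fgf7*, -0.49 to 0.36 for *fgf6a*, -0.46 to 0.37 for *fgf10b*, -0.77 to 0.035 for *fgfr4*, -0.047 to 0.51 for *fgfr1a*, -0.25 to 0.40 for *fgfr1b*, -0.44 to 0.079 for *fgfr3*, -5.75 to 0.57 for *fgfr1bl*, -0.46 to 0.054 for *pdgfab*, -0.0080 to 0.44 for *pdgfc* and -0.0052 to 0.10 for *pdgfrl*. Of 440 recomputed values of the 30 tested members, 411 kept their direction and their side of the threshold. Of 193 of the 13 called pathway genes, 118 did so and 0 changed direction. The cause of these changes was not tested. With 2 ventricles per genotype and rounded values, small differences in genes near a mean of 10 were not detectable.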
